A study of Mus musculus with 7 samples.

Results

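Total RNA of the tissue around the brain ventricles was represented by the 4 libraries labelled Input, numbered 1 to 4, out of 7 libraries in the series. They were chosen by their labels alone. They came from adult mice of line ES2575 (Dcdc2a-TRAP), which carries the transgene Dcdc2a-EGFP/Rpl10a. In this line Dcdc2a drives a ribosomal protein fused to a green fluorescent protein, so that ribosomes of the tagged cells can be pulled down with antibodies to EGFP. Tissue around the ventricles was dissected out and made into a homogenate, and Input stands for its total RNA. All 4 libraries came from this transgenic line, and none from mice without the transgene. The labels give no sex, age beyond adult, treatment or number of animals per library. They do not say whether the libraries came from separate mice, so the spread given below is a spread between libraries. The 3 libraries of immunopurified RNA were not used here.

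A homogenate of this kind mixes every cell type near the ventricles. Ependymal cells carry motile cilia and line the ventricular wall. The choroid plexus, a secretory epithelium within the ventricles, makes cerebrospinal fluid and transthyretin. Behind the ependyma lie the septum and striatum at the lateral ventricles, the thalamus and habenula and the hypothalamus at the third, and the brainstem and cerebellum at the fourth. Marker genes known for one cell type or region were therefore used as a guide to what the homogenate held. In such bulk RNA, fewer cells of a type and less RNA per cell cannot be told apart, and the dissection of a region cannot be told apart from either.

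Counts assigned to genes were 40826016, 44754345, 37203427 and 42140646 in Inputs 1 to 4. Levels are given as counts-per-million (CPM) of these totals, without any scaling between libraries, and as CPM per kilobase of exon where genes are compared with each other. At this depth 3 counts correspond to between 0.0670 and 0.0806 CPM, which was taken as the floor, counting error only. Each library was sequenced on its own lane, so lane and library cannot be told apart. Reads not assigned to a single gene made up 45.7% to 52.1% of all reads tallied in each table, with Input 2 lowest and Input 4 highest. As shares of all reads tallied, reads in more than 1 gene ranged from 9.33% in Input 2 to 12.9% in Input 4. Reads in no gene ranged from 15.2% to 18.2% in the same libraries. Reads not aligned uniquely lay between 20.9% in Input 1 and 21.2% in Input 2. A paired permutation test between gene lists over 4 libraries cannot pass the usual threshold (the smallest two-sided exact p is 0.13), so none was run and the results below are descriptions.

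Of 32531 gene symbols, 21748 had a count in at least 1 library and 14893 reached a mean of 1 CPM, which is 45.8% of those listed. These are called detected genes here. The 45.8% is the share to set beside each count of detected list members below. Protein-coding genes took 87.6% ± 2.48 (SD, n = 4) of the gene counts, from 84.6% in Input 4 to 90.3% in Input 2. Long intergenic RNAs took 3.08% ± 0.637, from 2.39% in Input 1 to 3.69% in Input 4. Models without a match in the GENCODE annotation took 8.86% ± 1.93, from 6.58% in Input 2 to 11.2% in Input 4. A single model without a proper name accounted for 3.76% to 6.34% of all gene counts. The 100 most abundant genes together took 23.5% ± 1.92, and the 10 most abundant 12.1% ± 2.24. Input 2 was at one end of each of these shares but that of the long intergenic RNAs, where Input 1 was lowest.

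Among genes with a proper name, the nuclear long noncoding RNA Malat1 (chr19:5795690-5802672, minus strand, GRCm38) had the highest level per length, 3503 CPM per kb. Its level was 17548, 21385, 28669 and 30229 CPM in Inputs 1 to 4. Inputs 3 and 4 were both above Inputs 1 and 2. Meg3, an imprinted noncoding RNA, was at 3317, 2646, 3525 and 3523 CPM, with Input 2 lowest. Rn45s, the precursor of the ribosomal RNAs, was at 3427, 2807, 4766 and 13996 CPM. Input 4 stood above the other 3 libraries in this precursor. Snhg11, a neuronal noncoding RNA, was at 1681, 1376, 1802 and 1945 CPM, with the same order of Input 2 below the rest.

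The 20 genes with the highest level per length included genes of nerve terminals, of the choroid plexus and of functions common to all cells. Ttr, the transthyretin made by the choroid plexus epithelium, came second at 2422 CPM per kb. The others with a proper name included Ywhaz and Ywhae, which encode 14-3-3 adaptor proteins, at 1373 and 785 CPM per kb. Calm2, a gene of the calcium sensor calmodulin, was at 952 CPM per kb. Snap25, a membrane fusion protein of nerve terminals, was at 1144 CPM per kb, and its vesicle partner Vamp2 at 584. Cdr1, whose locus also makes a circular RNA of neurons, was at 1186 CPM per kb. The counts do not tell the linear and circular forms apart. The small GTPase gene Arf3 (874), the neuronal calcium sensor Vsnl1 (744), beta-actin Actb (696), the mitochondrial ATP synthase subunit Atp5b (688) and the ferritin heavy chain Fth1 (620.1) followed, all in CPM per kb. Sepw1, Cox6a1, Camk2n1 and Ctxn1 were also in this group, with levels from 482 to 748 CPM per kb.

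The row Mir6236 held the third highest level per length, 1869 CPM per kb, at 246, 225, 218 and 229.9 CPM in Inputs 1 to 4. The gene spans only 123 bases of chr9:110281287-110281409 on the plus strand, and a short length raises the value per kilobase of any read that touches it. The labels name total RNA and no preparation of small RNAs, and the reads of this row cannot be assigned to the mature miRNA. The mature sequence (RefSeq, GRCm38.p6, chr9:110281353-110281371, plus strand) is shown because this row stood among the leading ones, with its seed, bases 2 to 8, in capitals.
mmu-miR-6236: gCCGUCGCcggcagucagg
Of 1112 miRNA rows in the tables, 350 had a count and 10 reached a mean of 1 CPM.

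Nuclear genes of oxidative phosphorylation, 98 of 103 detected, took 1.15% ± 0.0291 of the gene counts. Ribosomal protein genes, 76 of 83 detected, took 0.304% ± 0.0109. Both shares differed little between libraries. Reads with several alignments were left without a gene, which can lower the counts of genes with near-identical copies. Its part in the levels given here was not tested. Gapdh, the glycolytic enzyme with many processed copies, was at 6.27, 8.76, 8.71 and 9.56 CPM, while Aldoa, another enzyme of the pathway, was at 671, 798, 594 and 472 CPM. Exons of Gapdh also overlap another gene model. Histone genes, most of whose transcripts lack a poly(A) tail, took 0.0147% ± 0.00191, with 16 of 63 detected.

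To order the cell types, the level per length of each gene was averaged over the 4 libraries and its median over each marker list taken. Neighbours were called separate only where the ranges of the medians within each of their 4 libraries did not overlap. A median of averages can lie outside the range of the library medians. The median over all detected genes was 4.92 CPM per kb. Neuronal markers led at 57.8 CPM per kb (15 genes), followed by oligodendrocyte and myelin markers at 48.4 (15 genes), and these overlapped. Markers of inhibitory neurons and interneurons were at 19.5 CPM per kb (13 genes) and astrocyte markers at 17.03 (16 genes). These overlapped each other, and were separate from the lists above and below. The next group overlapped from neighbour to neighbour and ran from microglia at 4.42 CPM per kb (15 genes) down to pericytes and smooth muscle at 0.848 (10 genes). It held red blood cells (3.83), choroid plexus (3.39), oligodendrocyte precursors (2.94), ependyma (1.62), fibroblasts (1.04), tanycytes (0.957) and neuroblasts (0.908), all in CPM per kb. Endothelial markers at 0.275 CPM per kb, markers of blood and border immune cells at 0.174 and those of pituitary and pineal at 0.0512 came last. The pituitary and pineal median rested on few counts and was 0.00987 CPM per kb without Input 1 and 0.0234 without Input 4. With all libraries this median lay above each library median of the list, which were 0.0317, 0.0134, 0 and 0 in Inputs 1 to 4. Without Input 1 the red blood cell median was 2.33 CPM per kb, below choroid plexus at 3.06, and that of blood and border immune cells was 0.0953. When the longest transcript was taken as the length instead of all exons, the neuronal list stood at 122 CPM per kb and apart from the myelin list. The ependymal list then stood at 2.47, above its highest library median of 2.42. A median over markers ranks the chosen genes and is no estimate of how many cells each type contributed.

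**Figure D1:**
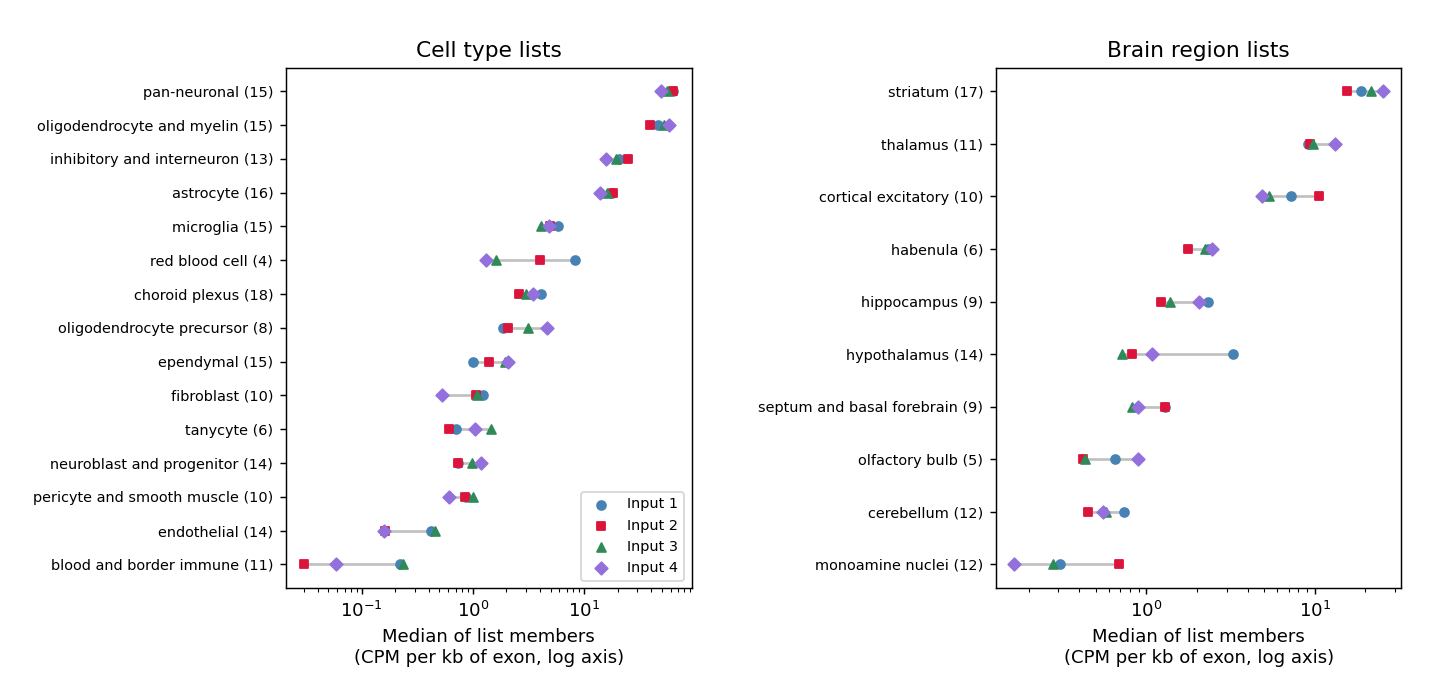
Median level of the members of each marker list in CPM per kb of exon (log axis), 1 point per Input library, with the number of measured members in brackets; the left panel holds cell types and the right panel brain regions. The neuronal and oligodendrocyte lists lie highest on the left and the striatal list on the right; the pituitary and hindbrain lists are left out because their median was 0 in at least 1 library.

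Neuronal markers were all detected and varied little. Snap25 (chr2:136713453-136782428, GRCm38) was at 7666, 9237, 7428 and 6756 CPM in Inputs 1 to 4. Rbfox3, the neuronal splicing factor known as NeuN, was at 190.5, 231, 192 and 146 CPM, and the vesicle calcium sensor Syt1 at 968, 1058, 976 and 984 CPM. Input 2 was highest in 13 of the 15 neuronal genes, where 27.8% of all detected genes were highest in that library. This share, like those beside the other lists, is over detected genes of every level and is not matched to the members' level. The 10 most abundant genes took 9.75% of the gene counts in Input 2 and 14.8% in Input 4. With library sizes without those 10, Input 2 was highest in 11 of the 15. Input 4 was lowest in 10 of the 15, against 30.2% of all detected genes. The differences were small, since 0 of the 15 reached a ratio of 2 between the highest and lowest library. Such a ratio was found in 35.3% of all detected genes, most of them at low levels, and in 8.48% of those from 20 to under 100 CPM and 0.863% of those above. Synaptic vesicle genes, of which Syt1, Syp, Syn1 and Snap25 are also in the neuronal list, showed the same arrangement, with 13 of 17 highest in Input 2 and 13 lowest in Input 4, against the same shares of all detected genes. Syn1, a phosphoprotein that tethers vesicles, was at 435, 467, 375 and 354 CPM. Vamp2 was nearly level at 2164, 2289.8, 2226 and 2212 CPM.

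Markers of inhibitory neurons were present in all libraries. Gad2, an enzyme of GABA synthesis, was at 951, 875, 869 and 824 CPM, and its partner Gad1 at 153, 173, 146 and 119.6 CPM. The neuropeptide genes Sst and Cck were at 168, 157, 138 and 139.9 CPM and 239.9, 237, 195 and 256 CPM. Pvalb, a calcium buffer of fast-spiking interneurons, was at 40.1, 58.9, 30.5 and 54.2 CPM. Vip, the gene of another interneuron peptide, had the lowest level per length in the list, 0.519 CPM per kb, and was at 3.16, 2.17, 1.21 and 0.522 CPM, with Input 1 highest and Input 4 lowest. Ionotropic receptor genes for glutamate, GABA and glycine, 23 of 24 detected, had nearly equal summed levels of 3945, 3897, 4135 and 3959.9 CPM in Inputs 1 to 4. Gria2, a subunit of AMPA receptors, was at 766, 700.2, 798 and 800.4 CPM. Gabra6, the subunit of cerebellar granule cells, had counts in Input 2 alone, at 0.849 CPM.

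Oligodendrocyte genes had a different order of libraries. Mbp, the myelin basic protein gene, was at 1011, 999.97, 1133 and 1174 CPM, and Mobp, another myelin gene, at 566, 506, 589 and 726 CPM. Inputs 3 and 4 were both above Inputs 1 and 2 in each. Input 4 was highest in 11 of the 15 genes, against 23.2% of all detected genes, and Input 2 was lowest in 8, against 24.8%. A ratio of 2 was reached by 1 of the 15, where about 0.962 would by the share of all genes at their level. This was Mog, with 78.2, 52.3, 98.7 and 108 CPM. Precursor markers were lower, and 6 of 8 reached a ratio of 2, where about 3.35 would by the share of all genes at their level. Pdgfra, the growth factor receptor of precursors, was at 53.6, 35.5, 60.4 and 55.9 CPM, and Gpr17, a receptor of cells starting to differentiate, at 23.00, 14.1, 35.3 and 50.9 CPM. Enpp6, an enzyme of newly formed oligodendrocytes, was at 13.1, 8.87, 24.5 and 30.5 CPM. Both Gpr17 and Enpp6 were lowest in Input 2 and highest in Input 4.

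Astrocyte genes had a summed level of 5628, 5725, 5095 and 5296 CPM in Inputs 1 to 4. A ratio of 2 was reached by 0 of 16, where about 1.200 would if members followed the share of all genes at their level. Slc1a2, the main glutamate transporter of astrocytes, was at 2158, 2140.3, 2066 and 2243 CPM. Aldoc, an aldolase of astrocytes, was at 577, 559, 405 and 371 CPM, and Glul, glutamine synthetase, at 902, 1075, 766 and 760.3 CPM. The water channel gene Aqp4 was at 111, 98.8, 104 and 86.1 CPM. Gfap, the intermediate filament gene, was at 50.97, 48.2, 33.5 and 33.2 CPM, higher in Inputs 1 and 2 than in Inputs 3 and 4. Aldh1l1, often used as a marker of all astrocytes, had the lowest level per length in the list, 1.59 CPM per kb, and was at 7.15, 7.999, 8.41 and 5.102 CPM.

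All 15 microglial genes were detected. Cx3cr1, the fractalkine receptor, was at 15.4, 14.7, 18.3 and 23.6 CPM, and the purine receptor P2ry12 at 19.1, 17.4, 28.8 and 20.6 CPM. Ctss, a lysosomal protease gene of microglia, was at 20.5, 19.5, 22.3 and 33.3 CPM. Input 2 was lowest in 10 of the 15 genes, against 24.8% of all detected genes. The median level per length of the list was 5.44 CPM per kb without Input 2.

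Vessel, blood and immune genes were low. The tight-junction gene Cldn5, a defining endothelial marker, was at 1.37, 2.44, 0.806 and 0.0237 CPM, where the value in Input 4 is below the floor. The glucose transporter gene Slc2a1 was at 56.6, 28.8, 43.2 and 47.5 CPM. Rgs5, a pericyte marker, was at 16.8, 13.05, 16.9 and 11.2 CPM. Acta2, the actin of smooth muscle, was at 5.19, 8.71, 13.1 and 2.97 CPM. Endothelial genes reached a ratio of 2 between the highest and lowest library in 10 of 11 detected members, where about 8.26 would if members followed the share of all genes at their level. Red blood cell genes were highest in Input 1 in 4 of 4 cases, against 26.3% of all detected genes. Their summed level was 76.9, 36.8, 15.2 and 19.8 CPM. Hbb-bs, an adult beta-globin, was at 49.3, 24.3, 9.92 and 12.4 CPM, and Alas2, the erythroid enzyme of haem synthesis, at 6.83, 2.75, 1.42 and 1.64 CPM. Globin genes have near-identical copies, so their counts are uncertain. Of 11 markers of lymphocytes, neutrophils and border macrophages, 5 were detected, near the 45.8% of all listed symbols. The B cell marker Ms4a1 and the neutrophil marker S100a9 had 0 counts in all 4 libraries, which allows up to 0.0806 CPM in the shallowest.

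Fibroblast genes included Igf2, a growth factor of the meninges and choroid plexus stroma, at 396, 175, 208 and 203 CPM. Input 1 stood above the other 3. Dcn, a proteoglycan of fibroblasts, was at 17.2, 11.8, 28.2 and 6.93 CPM, and Col1a1, the main collagen chain, at 2.42, 1.27, 0.914 and 0.522 CPM. The fibroblast genes were highest in Input 1 in 5 of 9 detected members, against 26.3% of all detected genes. Input 1 was also the library with the highest globin counts, and a part of blood or meninges in its other values was not tested.

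Ependymal genes were present but low per length. Foxj1, the transcription factor that switches on motile cilia, was at 12.98, 4.33, 9.19 and 5.98 CPM. Dcdc2a, the doublecortin-domain gene whose regulatory region drives the transgene, was at 27.7, 35.6, 72.8 and 42.7 CPM, with Input 3 highest. It made up a large part of the summed level of the list, which was 87.00, 75.1, 142 and 111 CPM. Rsph1, a radial spoke protein of motile cilia, was at 5.98, 10.4, 11.3 and 7.31 CPM. Dynlrb2, a dynein light chain, was at 3.65, 0.938, 4.301 and 7.69 CPM, and Ccdc153, a ciliary coiled-coil gene, at 7.495, 2.84, 6.42 and 4.22 CPM. Tekt1, a tektin of the ciliary microtubules, was at 0.122, 0.402, 3.17 and 4.37 CPM, higher in Inputs 3 and 4 than in the other libraries. Of 14 detected ependymal genes, 12 reached a ratio of 2, where about 9.24 would if members followed the share of all genes at their level. None of the 14 was highest in Input 2, against 27.8% of all detected genes. The order of libraries differed between members: Foxj1 and Ccdc153 were highest in Input 1 and Tekt1 and Dynlrb2 in Input 4.

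Choroid plexus genes covered a wide range of levels. Ttr was at 2789, 2137, 2787 and 3778 CPM in Inputs 1 to 4, lowest in Input 2 and highest in Input 4. Enpp2, an enzyme secreted by the choroid plexus and also made by oligodendrocytes, was at 751, 566, 752 and 1086 CPM, in the same order of lowest and highest. Kl, the Klotho gene, was at 70.03, 50.9, 57.4 and 88.9 CPM, and the chloride channel gene Clic6 at 69.3, 48.6, 47.4 and 72.4 CPM. Folr1, the folate transporter of the epithelium, was at 9.75, 7.66, 7.096 and 8.16 CPM, and the tight-junction gene Cldn2 at 7.18, 4.18, 5.05 and 10.3 CPM. Otx2, a transcription factor of the epithelium, did not follow Ttr and was at 30.1, 26.6, 7.47 and 20.8 CPM, lowest in Input 3. Of 17 detected genes, 8 were highest in Input 4, against 23.2% of all detected genes, and 9 lowest in Input 2, against 24.8%. Their median level per length stood at 3.39 CPM per kb although Ttr alone was second among all named genes.

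Tanycytes, the ependyma-like cells of the third ventricle floor, were not marked clearly. Rax, their defining transcription factor, had counts in Input 4 alone, at 0.0475 CPM, below the floor. Dio2, an enzyme that activates thyroid hormone in tanycytes and in astrocytes, was at 53.4, 58.4, 69.4 and 51.5 CPM. Among genes of newborn neurons and progenitors, Dcx, a microtubule protein of migrating neurons, was at 86.2, 80.7, 88.8 and 91.8 CPM, and Sox11, a transcription factor of immature neurons, at 64.3, 75.03, 70.9 and 72.8 CPM. Dlx6os1, a noncoding RNA of forebrain inhibitory progenitors, was at 15.4, 11.7, 27.4 and 27.4 CPM. Mki67, which marks dividing cells, was at 8.43, 7.33, 8.76 and 1.28 CPM, with Input 4 lowest. Of 12 detected genes of this list, 8 were highest in Input 4, against 23.2% of all detected genes.

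Among brain regions the striatum led, with a median of 20.2 CPM per kb over 17 genes and library medians above every library median of the thalamus, at 10.4 (11 genes). That separation was lost when the longest transcript was taken as the length, with 24.7 against 14.9 CPM per kb. Cortical excitatory markers followed at 6.91 CPM per kb (10 genes) and overlapped with the thalamus. The habenula (2.36), hippocampus (2.102), hypothalamus (1.55), septum and basal forebrain (0.954), olfactory bulb (0.618), cerebellum (0.545) and monoamine nuclei (0.352) overlapped from neighbour to neighbour. Without Input 1 the hypothalamic median was 1.04 CPM per kb. Without Input 2 the monoamine median was 0.215 CPM per kb. Hindbrain markers lay apart below all of these at 0.00189 CPM per kb, and at 0 without Input 2. As for cell types, these medians rank the chosen genes and do not estimate how much of each region the homogenate held.

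The striatal genes shared an arrangement of libraries. Penk, which encodes the enkephalin precursor of indirect-pathway neurons, was at 247, 162, 291 and 384 CPM in Inputs 1 to 4. Rgs9, a regulator of dopamine receptor signalling, was at 174, 126, 187 and 344 CPM. Drd1, the dopamine receptor of direct-pathway neurons, was at 71.3, 70.9, 99.8 and 129.7 CPM. In each of these, Input 2 was lowest and Input 4 highest. The phosphodiesterase gene Pde10a was at 631, 613, 659 and 955 CPM. Drd2, the dopamine receptor of indirect-pathway neurons, varied little, at 47.4, 42.2, 40.5 and 48.1 CPM. Input 4 was highest in 15 of the 17 genes, against 23.2% of all detected genes, and Input 2 lowest in 13, against 24.8%. The genes highest elsewhere were Gpr6 and Pdyn, both in Input 1. A ratio of 2 was reached by 7 of the 17, where about 1.74 would if members followed the share of all genes at their level. The sum of the list was 2144, 1887, 2360.2 and 3150.3 CPM.

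Thalamic genes were also well detected, 10 of 11. Tcf7l2, a transcription factor of thalamic neurons that oligodendrocytes also use, was at 329.8, 417, 289.9 and 331 CPM, highest in Input 2. Prkcd, a kinase of sensory relay neurons, was at 98.8, 96.3, 85.5 and 115 CPM, and Slc17a6, the vesicular glutamate transporter of subcortical neurons, at 168, 232, 132 and 157 CPM. The list was split between libraries, with 6 of 10 genes highest in Input 4 and 3 in Input 2, against 23.2% and 27.8% of all detected genes. Cortical genes included Slc17a7, the vesicular glutamate transporter of cortical neurons, at 189.9, 232, 196 and 162 CPM, and Neurod6, a transcription factor of excitatory neurons, at 73.4, 99.9, 112 and 74.8 CPM. Tbr1, a deep-layer transcription factor, was at 36.3, 78.4, 36.4 and 45.3 CPM. Of 9 detected cortical genes, 6 were highest in Input 2, against 27.8% of all detected genes, including Slc17a7 and Tbr1. Habenular genes reached low levels, with the nicotinic subunit gene Chrna3 at 15.6, 10.1, 9.86 and 10.3 CPM and Gpr151 at 7.96, 2.100, 1.29 and 4.56 CPM.

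Hippocampal and septal markers were weak. Prox1, a transcription factor of dentate granule cells that thalamic neurons and oligodendrocyte precursors also express, was at 146, 114, 146 and 107 CPM. Trpc4, a channel gene of the lateral septum, was at 61.6, 30.8, 34.2 and 29.2 CPM, where Input 1 stood above the other 3. Lhx8, a transcription factor of basal forebrain cholinergic neurons, was at 17.3, 7.17, 9.11 and 7.97 CPM, with the same library highest. Slc5a7, the choline transporter of cholinergic neurons, was at 16.6, 10.2, 19.3 and 29.9 CPM, and here Input 4 was highest.

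Hypothalamic genes set Input 1 apart. Avp (chr2:130580620-130582554, minus strand, GRCm38), which encodes vasopressin, was at 42.2, 6.01, 7.07 and 5.89 CPM. Oxt (chr2:130576173-130577054, plus strand), its neighbour on chromosome 2 that encodes oxytocin, was at 24.3, 6.08, 6.05 and 8.78 CPM. All 7 detected genes of the list were highest in Input 1, against 26.3% of all detected genes, and all 7 reached a ratio of 2, where about 4.02 would by the share of all genes at their level. The others were the melanin-concentrating hormone gene Pmch at 12.4, 4.98, 6.48 and 2.59 CPM, the orexin gene Hcrt at 11.4, 6.46, 10.2 and 1.33 CPM, the opioid precursor Pomc at 6.86, 2.03, 2.85 and 2.92 CPM, Trh at 9.97, 3.28, 1.398 and 2.82 CPM and the transcription factor Nkx2-1 at 8.89, 4.27, 6.32 and 5.39 CPM. Input 1 was only a little above Input 3 in Hcrt, and Input 4 was lowest in it. The summed level of the 14 listed genes was 124, 33.96, 41.6 and 32.1 CPM. Neuropeptide precursors as a class were highest in Input 1 in 16 of 28 detected genes, against the same 26.3%, 6 of them the peptide genes of this paragraph.

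**Figure D2:**
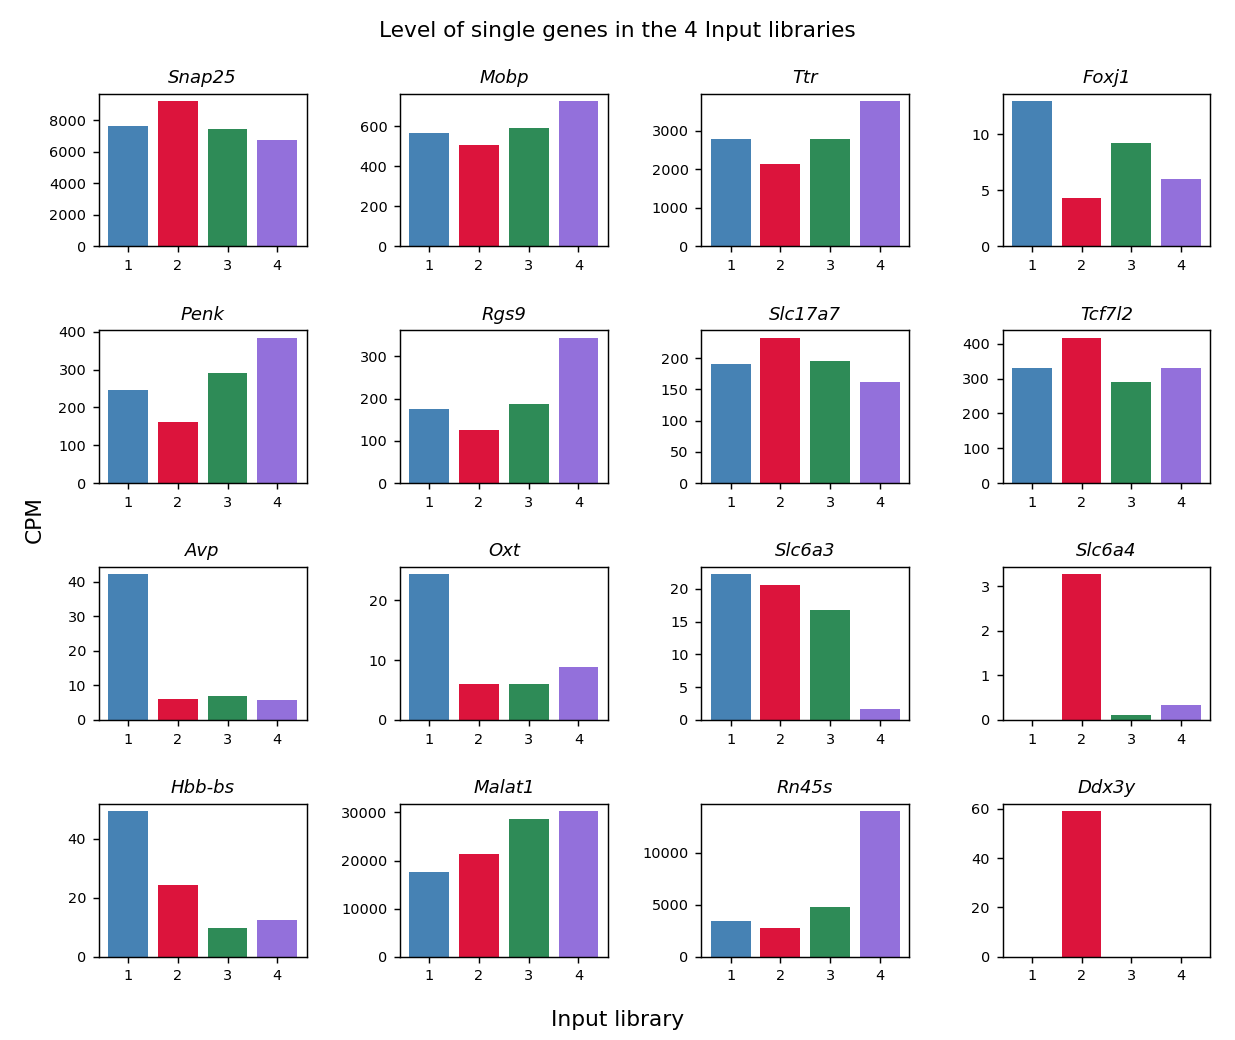
Level in CPM of 16 genes in each of the 4 Input libraries, 1 bar per library, with a separate linear axis from 0 for each gene. Striatal Penk and Rgs9 are highest in Input 4, Avp, Oxt and Hbb-bs in Input 1, Slc6a4 and Ddx3y in Input 2, and Snap25 differs little between libraries.

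Of 12 genes of monoamine neurons, 6 were detected, near the 45.8% of all listed symbols. Slc18a2, the vesicular monoamine transporter, was at 33.9, 36.98, 22.5 and 23.7 CPM. Slc6a3, the dopamine transporter made in midbrain neurons, was at 22.2, 20.6, 16.8 and 1.64 CPM, so that Input 4 was far below the other 3. Th, the first enzyme of catecholamine synthesis, was at 16.9, 13.4, 5.698 and 9.04 CPM and did not follow the transporter in Input 4. Slc6a4, the serotonin transporter, was at 0, 3.26, 0.108 and 0.332 CPM, where Input 2 was highest and Input 1 had no count. Tph2, which makes serotonin in the raphe, was also highest in Input 2, at 1.25, 2.95, 0.753 and 0.736 CPM. Of 12 cerebellar genes, 9 were detected. The Purkinje cell gene Pcp2 was not, at 0.0245, 0.425, 0.188 and 0.261 CPM. Cbln1, a synapse organiser of cerebellar granule cells that other regions also express, was at 43.8, 20.4, 19.4 and 24.7 CPM.

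Hindbrain genes were close to absent. None of the 19 listed genes, 16 of them Hox genes that mark the hindbrain and spinal cord, reached a mean of 1 CPM. Members with any count numbered 5, 12, 3 and 2 in Inputs 1 to 4, and those above 3 counts 2, 8, 0 and 0. Slc6a5, the glycine transporter of hindbrain neurons, was at 0.539, 1.14, 0.0269 and 0 CPM. Input 2 therefore had the most hindbrain genes with counts. Of the pituitary and pineal list, 2 of 11 genes were detected. These were Tshb, a subunit of thyrotropin, at 1.52, 2.66, 2.37 and 1.28 CPM, with counts in all libraries, and the prolactin gene Prl at 2.25, 4.201, 0 and 0 CPM. The growth hormone gene Gh was under a mean of 1 CPM, at 0.318, 2.75, 0 and 0 CPM, and like Prl had no count in Inputs 3 and 4.

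Genes that respond to activity or stress were present. Egr1, an immediate early transcription factor, was at 305, 436, 302 and 304 CPM, and Arc, a synaptic immediate early gene, at 38.5, 82.9, 56.3 and 71.4 CPM. The summed level of the immediate early list was 788, 1047, 808 and 804 CPM, with Input 2 above the other 3. Input 2 was highest in 7 of 14 detected members, against 27.8% of all detected genes. Hsp90ab1, a heat shock chaperone, was at 649, 763, 594 and 529.6 CPM, and 8 of 11 detected stress genes were highest in Input 2, against the same share. Glycolytic genes were highest in Input 2 in 8 of 14, again against 27.8%, and lowest in Input 4 in 9, against 30.2%, with Pkm, pyruvate kinase, at 234, 287, 184 and 159 CPM. RNA quality was not labelled, and its part in these levels was not tested.

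**Figure D3:**
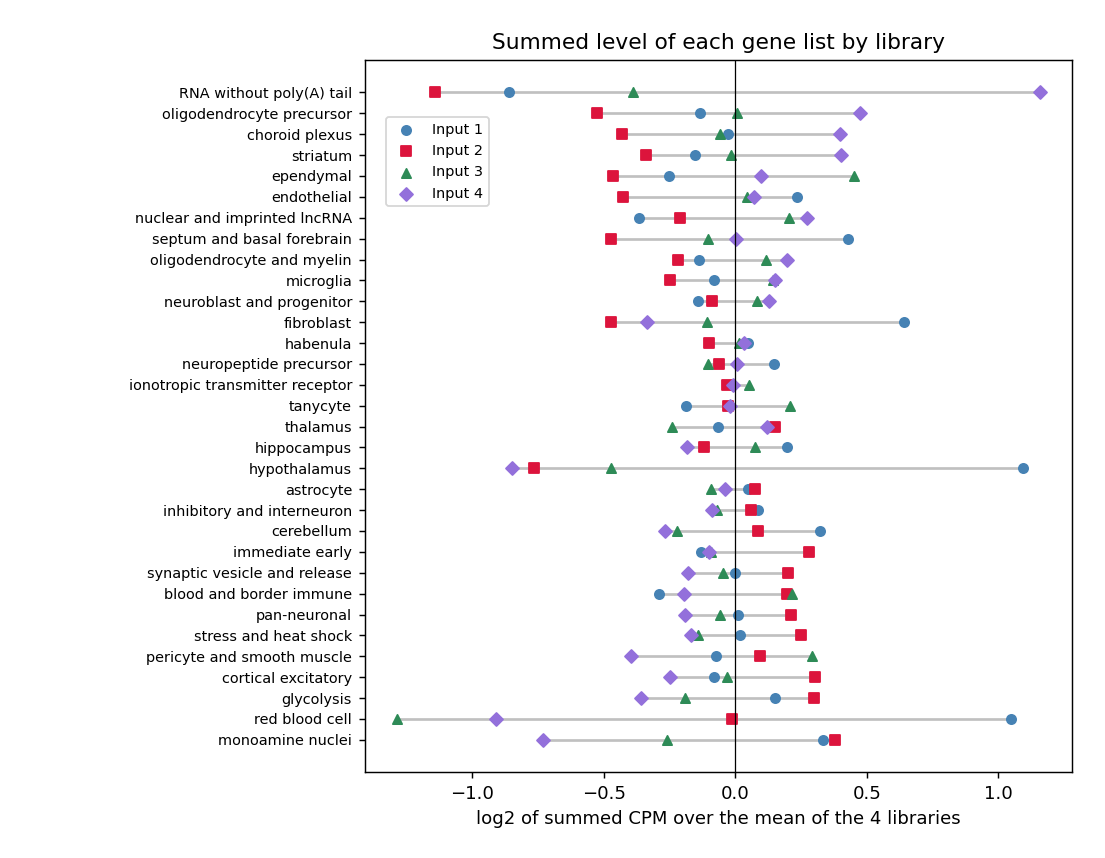
Summed CPM of each gene list in each Input library, as log2 of its ratio to the mean of the 4 libraries, with lists ordered by the ratio of Input 4 to Input 2 and lists with a library at 10 CPM or less left out. Input 4 lies right of Input 2 in the striatal, oligodendrocyte and choroid plexus lists and left of it in the neuronal, synaptic and glycolytic lists, and Input 1 stands out in the hypothalamic and red blood cell lists.

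The spread between libraries depended on the level of a gene. A ratio of 2 or more between the highest and lowest library was found in 5264 of the 14893 detected genes, 35.3%. It was found in 85.7% of genes with a mean of 1 to under 5 CPM, in 46% of those from 5 to under 20, in 8.48% of those from 20 to under 100, and in 0.863% of those at 100 or more. The median coefficient of variation (CV) fell from 57.2% in the lowest of these bands to 11.2% in the highest. Counting error alone would give 10.2% and 1.18%, so the median spread exceeded it in both bands. For pairs of libraries the median absolute log2 ratio over genes of at least 20 CPM lay between 0.20 for Inputs 1 and 2 and 0.28 for Inputs 2 and 4. Over all detected genes Inputs 3 and 4 were the closest pair at 0.32. Detected genes were highest in Input 1 in 26.3% of cases, in Input 2 in 27.8%, in Input 3 in 22.7% and in Input 4 in 23.2%. They were lowest in 22.7%, 24.8%, 22.3% and 30.2% in the same order.

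**Figure D4:**
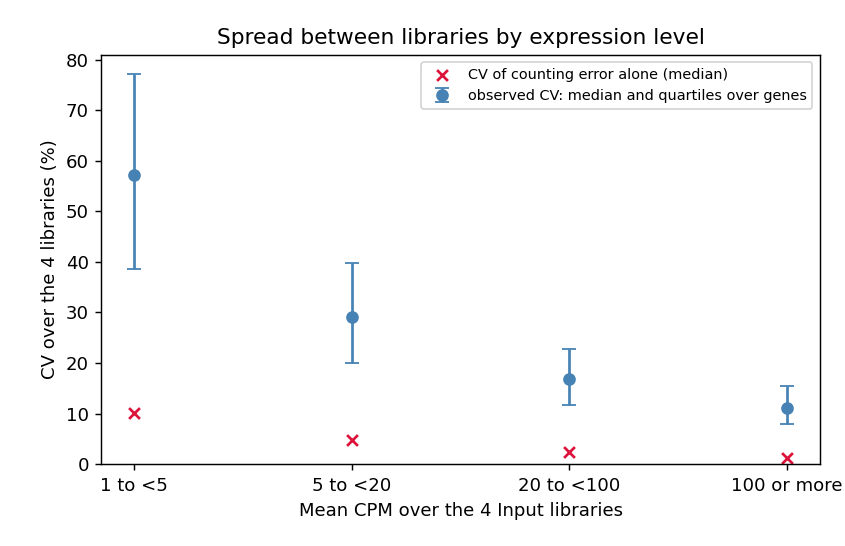
Coefficient of variation over the 4 Input libraries by mean level: blue points give the median and bars the quartiles over genes, and red crosses the value that counting error alone would give. The observed median falls from 57.2% to 11.2% and stays above the crosses, which fall from 10.2% to 1.18%.

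Among the abundant genes only 19 reached a ratio of 2, and 14 of these had a proper name. Besides Rn45s, Rgs9, Penk and Igf2 they included Frmpd4, a synaptic scaffold gene, at 99.7, 273, 119 and 102 CPM, with Input 2 highest. Dbi, which encodes a protein that binds acyl-CoA and is rich in glia and ependyma, was at 196, 182, 340.2 and 385 CPM, higher in Inputs 3 and 4. Ryr3, a calcium release channel gene, was at 112, 73.98, 137 and 182 CPM, and Lrrc10b at 120.5, 77.4, 138 and 189 CPM, both lowest in Input 2 and highest in Input 4. Fto, an RNA demethylase gene, was at 144, 188, 124 and 72.1 CPM, and the chromatin protein gene Ctcf at 106, 133, 127 and 61.2 CPM, both lowest in Input 4. The others were Mlec, Cops6, Zcchc7 and Rgl1. These genes were singled out after their values were seen.

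Of the 15 genes with the highest ratios among those of at least 5 CPM, 4 had no proper name, and others were Slc6a3 and, among the genes of the sex chromosomes described below, Xist, Ddx3y and Kdm5d. Rbp4, a retinol carrier, was at 18.8, 7.62, 11.02 and 1.26 CPM. Bmp4, a growth factor, was at 6.74, 17.6, 2.61 and 1.23 CPM, with Input 2 highest. Ccl28, a chemokine gene, was at 21.5, 2.704, 5.97 and 1.61 CPM, with Input 1 highest, and Itgam, an integrin of microglia and myeloid cells, at 1.69, 4.45, 4.596 and 23.04 CPM, with Input 4 highest. The microglial gene Cx3cr1 was also highest in Input 4, by a smaller ratio, but P2ry12 was highest in Input 3. Of the 15 genes of the microglial list, 6 were highest in Input 4, against 23.2% of all detected genes. Their summed level was 179, 160, 209 and 211 CPM in Inputs 1 to 4. Slc25a30 was at 0.882, 14.6, 2.47 and 8.23 CPM and Psmc3ip at 1.25, 3.396, 14.9 and 7.499 CPM. At the other end, the steadiest genes of at least 50 CPM included Canx, a chaperone of the endoplasmic reticulum, at 371, 370.4, 376 and 372 CPM. Prkcb, a kinase of neurons, was at 1345, 1365, 1365 and 1372 CPM, the calcineurin regulator Rcan1 at 62.4, 62.8, 62.7 and 61.4 CPM and the RNA-binding protein gene Msi2 at 299.5, 305, 305 and 300.5 CPM. Pptc7, Itfg1, Kifc2, Ints10, Kcnq5 and Rbfox2 made up the rest of the 10.

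Genes of the sex chromosomes separated 1 library. Ddx3y, an RNA helicase gene of the Y chromosome, was at 0.0245, 59.01, 0.0269 and 0 CPM, where the values of Inputs 1 and 3 are at 1 count. The other 3 Y-linked genes, Eif2s3y, Kdm5d and Uty, were at 16.3, 24.1 and 16.1 CPM in Input 2. In the other 3 libraries they were at 0, save for 1 count of Uty in Input 3. Xist, the RNA of the inactive X chromosome, was at 56.97, 4.0, 46.5 and 66.6 CPM, lowest in Input 2. Sex was not labelled. Library 2 differs from the others in these genes as well as in lane. The part of this in the other values that set Input 2 apart was not tested.

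Some of these values are uncertain because reads that fell in several genes were not assigned to any of them. Exons of Alas2, Aldh1l1, Bmp4, Cdr1, Ctcf, Cx3cr1, Dio2, Enpp2, Fto, Gapdh, Glul, Gpr17, Gria2, Igf2, Itgam, Malat1, Meg3, Mobp, Otx2, P2ry12, Pcp2, Pdgfra, Penk, Pkm, Pmch, Prox1, Psmc3ip, Rax, Ryr3, Slc18a2, Slc1a2, Slc2a1, Snhg11, Syn1 and Xist overlap another gene model in the annotation. Where both models were counted, reads in the shared stretch can be missing, and the levels of these genes can be too low. For a neighbour on the other strand, this depends on how the counting handled strand, which is unknown here. The size of such a loss in each library was not tested.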

How the data were processed

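RNA of 4 Input libraries of the tissue around the ventricles was analysed, and the 3 immunopurified libraries were left out. The authors deposited whole-number counts of reads per gene symbol, 1 table per library, without normalization. The submitters' processing notes name STAR 2.0.0e, HTSeq and build mm10. What annotation, strand setting or library kit was used is not given in the sources used here. Summary lines of each table (no feature, ambiguous, not aligned uniquely) stayed out of library sizes. They held 45.7% to 52.1% of the reads tallied.

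CPM was the count divided by the library's total over genes. Symbols were matched to GENCODE release M21 (GRCm38, the assembly of mm10), 23116 by symbol and 731 through a synonym, and 92.7% of detected genes had a match. Length was that of all exons joined. Positions are 1-based. The calculations were made in Python 3.11.15 with pandas 2.3.3, and edgeR 4.0.16 in R 4.3.3 gave TMM factors for an alternative scaling. The spread calculation was tested on simulated data with counting error only, for genes of at least 20 CPM. That check says nothing about the spread between the real libraries or about lower levels.

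The 36 gene lists, the members and the naming rule were chosen with earlier results of these data known. Named were the 20 genes highest per kilobase and the 10 highest in CPM, in each list the 3 highest members and the lowest, the 15 genes with the highest ratio between libraries among those of at least 5 CPM, the 10 with the lowest CV among those of at least 50 CPM, and defining markers. Other members named as examples were chosen after their values were seen. Models without a proper name were counted and not named, and some genes that the rule takes are not reported here. Listed symbols that the tables do not hold, such as Hba-a1 and Rn7sk, were not analysed here, and proteins were not used here. No groups were compared, and no test was run beside Dixon's criterion for a library apart from the other 3. The alternatives tried were TMM scaling, library sizes without the 10 most abundant genes, other filters and ratios, the longest transcript as length, and leaving out each library.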

Additional observations from a re-analysis of the deposited data

Results flagged for a closer look

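Dixon's criterion was applied to 170 values, which were genes named above and the summed gene lists. Sums of some of these lists are not given above. For each value, the highest or lowest library was set against the other 3 by its gap to the nearest one relative to the range. In 20 values, 17 genes and 3 lists, that share was above Dixon's 95% critical value for 4 values, and the library apart was the highest in each. Chance flags about 1 in 20 such sets of 4 where values follow a normal distribution, which low counts do not. The number flagged cannot be read against that share, because some of the genes were named for their high ratio between libraries or after their values were seen, and genes of 1 list do not vary independently.

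Input 1 stood apart in Avp at 42.2 CPM, Oxt at 24.3 CPM, the septal channel gene Trpc4 at 61.6 CPM, the habenular gene Chrna3 at 15.6 CPM and Igf2 at 396 CPM. The summed hypothalamic list was at 123.5 CPM in that library.

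Input 2 stood apart in the Y-linked genes Ddx3y at 59.0 CPM, Kdm5d at 24.1 CPM, Eif2s3y at 16.3 CPM and Uty at 16.1 CPM, and in their sum at 115.5 CPM. It also stood apart in Egr1 at 436 CPM, in the summed immediate early list at 1047 CPM and in Frmpd4 at 273 CPM. At low levels the same library led in Slc6a4 at 3.26 CPM, Gh at 2.75 CPM and Gabra6 at 0.849 CPM. Input 4 stood apart in Pde10a at 955 CPM, Itgam at 23.0 CPM and Rax at 0.0475 CPM, the last of these below the floor of 3 counts. Gabra6, Rax, Eif2s3y and Kdm5d had no count in any other library, so the zeros alone fixed their flags.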

How the results depend on the processing

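TMM scaling, with factors from 0.978 to 1.014, moved none of the 302 values recomputed with it by more than the spread between libraries, or for counts by more than 1.5 times. Library sizes without the 10 most abundant genes raise every CPM by construction. The protein-coding share, then relative to the smaller total, was 99.7%, the neuronal median 65.7 CPM per kb and the astrocyte median 19.3 CPM per kb, and 71 further values of genes and lists moved by more than the spread. With the longest transcript as length, medians in CPM per kb were 122 for neurons, 23.0 for astrocytes, 2.47 for ependyma, 4.58 for choroid plexus, 24.7 for striatum and 14.9 for thalamus. The count of genes with a ratio of at least 2 was 1251 when a mean of 10 CPM was required, against 5264, and 9197 genes reached a ratio of 1.5. Leaving out 1 library at a time gave a microglial median between 4.27 and 5.44 CPM per kb, the latter without Input 2. It also moved the medians of the pituitary list and of RNA without a poly(A) tail beyond their spread. Levels of genes, list sums and shares are means over libraries, and leaving out 1 of 4 cannot move such a mean beyond that spread. Staying within it therefore does not show that these values do not rest on 1 library. No paired analysis was possible because no groups were compared. Levels below the floor of 3 counts are not resolved at this depth.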
